A study of Mus musculus with 8 samples.

Results

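The genes described here are the 9 that encode the CD3 signalling chains, the co-receptors and the first kinases and adaptor of T cell receptor signalling. Cd3e, Cd3d, Cd3g, Cd247, Cd4, Cd8a, Lck, Zap70 and Lat were taken by symbol from the 54146 genes quantified by RNA-seq in the mouse T lymphoblast line EL4, which derives from C57BL/6 mice. The study asked how T-bet and GATA3, the factors that direct TH1 and TH2 differentiation, change genome binding and gene expression when expressed alone or together. There were 4 lines, each made by retroviral transduction and drug selection: GFP + Plum (the fluorescent control proteins only), T-bet + Plum (FLAG-T-bet with Plum), GFP + GATA3 (HA-GATA3 with GFP) and T-bet + GATA3 (both factors). Before RNA was taken, all 4 had 4 h of stimulation with the phorbol ester PMA at 50 ng/ml plus 1 μM of the calcium ionophore ionomycin. In all, 2 libraries per line, 8 in total, were analysed. PMA and ionomycin act downstream of the receptor, so the values are of cells stimulated past the complex described here. No unstimulated library was analysed. Each line is a single transduced line, and the study's replicates are separate harvests of it, made on different days, so p-values measure the spread between harvests. A difference between lines cannot be told apart from a difference between independently made lines.

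In T cells, the αβ T cell receptor has no signalling tail of its own and is assembled with the CD3 chains, as CD3δε and CD3γε pairs and a ζ dimer encoded by Cd247. When the receptor binds its ligand, the Src family kinase Lck, part of which is bound to CD4 or CD8, phosphorylates the CD3 and ζ tails. ZAP-70 docks on those tails and phosphorylates the adaptor LAT, on which phospholipase and Ras signalling complexes are built.

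Levels are given as TPM, which scales each library to the same total and corrects for transcript length, summed over each gene's transcripts. Differences between lines are log2 fold changes (log2 FC) of counts from edgeR's quasi-likelihood test, fitted over all 8 libraries and 14791 genes. A gene was called at a Benjamini-Hochberg false discovery rate (FDR) of at most 0.05. The T-bet effect is the mean of the log2 FC for T-bet without and with GATA3, and the GATA3 effect is the mean of the log2 FC for GATA3 without and with T-bet. The libraries held between 8038565 and 16003519 estimated counts, and in each line replicate 2 was the deeper library. A count of 3, taken as the floor, corresponded to between 0.187 and 0.373 CPM (counts scaled to library size, without correction for length). All other CPM values here use library sizes scaled by edgeR's TMM factors. Tbx21, which encodes T-bet, was higher in the lines given T-bet (T-bet effect 5.92, FDR = 4.53e-06), and Gata3 was higher in the lines given GATA3 (GATA3 effect 2.65, FDR = 0.000713). The counts do not separate a transgene from the endogenous gene. Mean Gata3 was 26.2 TPM in GFP + Plum and 15.95 in T-bet + Plum, against 281 in GFP + GATA3 and 151 in T-bet + GATA3 (n = 2 each). Without GATA3 therefore means without added GATA3, and the lines given GATA3 differed in its level. Of 13 T cell markers, 11 reached 1 TPM in some library, whereas none of the B cell, myeloid, erythroid or fibroblast markers listed did. The 13 include the 9 genes described here, so most of this check is not separate from them. Among the 11, Cd4 reached 1 TPM only in GFP + GATA3 replicate 1 (1.61) and T-bet + Plum replicate 2 (2.49). Of 5 NK cell markers, 1 reached 1 TPM (Fcer1g, described with the ζ chain).

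In these libraries, Lck, Zap70 and Cd3d were higher in the presence of T-bet. The T-bet effect was 1.52 for Lck, 0.71 for Zap70 and 0.50 for Cd3d, corresponding to 2.87-fold, 1.63-fold and 1.41-fold. Cd3e, Cd3g, Lat and Cd4 were tested and not called, and Cd247 and Cd8a did not pass the filter on low counts. Thus 3 of the 9 genes were called for T-bet, all higher, and 7 of 9 passed the filter on low counts. Across all genes tested, 15.2% were called for the T-bet effect and 8.55% were called higher. With 1 library left out, 1229 to 2377 genes were called, against 2242 with all 8. No member was called for GATA3. In bulk RNA, fewer expressing cells and less RNA per cell cannot be told apart.

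The windows around the starts of the 3 genes called are shown here because these are the genes whose levels differ with T-bet. They come from RefSeq (GRCm38.p6) and run from 250 bases before to 50 bases after each start. Lck has a pair of starts, 15269 bases apart on the minus strand of chromosome 4. The upstream window is chr4:129573592-129573891 and the downstream window chr4:129558323-129558622. For Zap70 the window is that of its main transcript on the plus strand, chr1:36761548-36761847, and for Cd3d it is chr9:44981536-44981835, also on the plus strand. Capitals mark the T-box half-site core GTGTGA or its reverse complement TCACAC.
Lck upstream: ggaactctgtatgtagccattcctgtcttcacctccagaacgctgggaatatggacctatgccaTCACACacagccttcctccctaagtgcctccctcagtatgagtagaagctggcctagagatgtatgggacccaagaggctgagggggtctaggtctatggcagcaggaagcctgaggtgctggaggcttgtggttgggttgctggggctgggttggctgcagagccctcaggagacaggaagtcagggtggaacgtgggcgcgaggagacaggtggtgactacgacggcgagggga
Lck downstream: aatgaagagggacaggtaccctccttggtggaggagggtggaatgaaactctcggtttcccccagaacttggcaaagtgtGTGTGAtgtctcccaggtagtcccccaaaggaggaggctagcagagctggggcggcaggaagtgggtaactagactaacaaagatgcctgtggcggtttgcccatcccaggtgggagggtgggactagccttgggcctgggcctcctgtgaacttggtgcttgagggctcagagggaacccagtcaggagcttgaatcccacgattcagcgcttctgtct
Zap70: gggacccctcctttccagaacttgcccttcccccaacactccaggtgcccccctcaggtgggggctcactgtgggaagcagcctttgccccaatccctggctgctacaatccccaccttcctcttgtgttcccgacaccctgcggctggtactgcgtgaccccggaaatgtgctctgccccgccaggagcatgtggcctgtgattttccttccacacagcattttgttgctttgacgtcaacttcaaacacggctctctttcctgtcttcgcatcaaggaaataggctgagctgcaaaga
Cd3d: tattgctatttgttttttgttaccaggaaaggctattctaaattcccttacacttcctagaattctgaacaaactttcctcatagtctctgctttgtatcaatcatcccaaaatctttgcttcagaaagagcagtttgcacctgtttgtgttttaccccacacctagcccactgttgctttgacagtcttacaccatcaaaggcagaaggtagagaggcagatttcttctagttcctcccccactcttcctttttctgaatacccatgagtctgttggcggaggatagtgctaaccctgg
Both Lck windows hold the core once. The match starts 186 bases before the upstream start, as the reverse complement, and 170 bases before the downstream start, as GTGTGA. Neither of the Zap70 and Cd3d windows shown holds it. Windows were found for 8 of the 9 genes, 11 windows in all, with 3 for Zap70, and the 2 of Lck were the windows with the core. Of 32817 RefSeq windows of the same length, 14.5% hold it. The GATA sequence AGATAA or TTATCT, whose letters do not overlap with the core, was in 1 of the 11 windows, that of Cd3g, 104 bases before its start, against 11.2% of all windows. A match of 6 letters is a description of the sequence, and RNA-seq does not measure binding. The study measured T-bet and GATA3 binding by ChIP-seq in these lines, and those data were not used here.

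The CD3 genes lie together on chromosome 9 (GRCm38). Cd3g (44969572 to 44980431, minus strand) and Cd3d (44981786 to 44987339, plus strand) are divergent, with starts 1355 bases apart, and Cd3e (44998740 to 45009627, minus strand) lies beyond Cd3d. Cd3d, which encodes the δ chain, was at 157 and 120 TPM in GFP + Plum, 153 and 138 in GFP + GATA3, 176 and 210 in T-bet + Plum, and 184 and 197 in T-bet + GATA3. The 4 libraries with T-bet were all above the 4 without, and the line means were 138 TPM ± 26.3 (SD, n = 2) in GFP + Plum and 193 ± 24.2 in T-bet + Plum. The T-bet effect for Cd3d was 0.50 (95% interval 0.30 to 0.70, edgeR FDR = 0.00775). Against GFP + Plum, T-bet + Plum gave a log2 FC of 0.52 (edgeR FDR = 0.0498), and with GATA3 present the log2 FC for T-bet was 0.48 (edgeR FDR = 0.0688), which was not called. The call between T-bet + Plum and GFP + Plum lay at the threshold and was lost in 13 of 16 alternative fits, including each fit that left out 1 library, with log2 FCs between 0.41 and 0.62. The call over both GATA3 states was kept in all 15 alternatives, with a highest FDR of 0.049.

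Cd3g encodes the γ chain, which pairs with ε as the δ chain does. Its level was 89.2 and 92.3 TPM in GFP + Plum, 92.3 and 103 in GFP + GATA3, 80.3 and 91.1 in T-bet + Plum, and 88.0 and 111 in T-bet + GATA3. The lines overlapped, and the T-bet effect was 0.06 (95% interval -0.17 to 0.29, edgeR FDR = 0.754). Cd3e encodes the ε chain shared by both CD3 pairs. It was at 88.9 and 112 TPM in GFP + Plum, 102.5 and 122 in GFP + GATA3, 107 and 123 in T-bet + Plum, and 96.3 and 128 in T-bet + GATA3. Replicate 2 was above replicate 1 in every line, the lines overlapped, and the T-bet effect was 0.16 (95% interval -0.09 to 0.41, edgeR FDR = 0.377). The interval of the T-bet effect began at 0.296 for Cd3d and ended at 0.289 for its neighbour Cd3g, and the difference between the genes was not tested. The ratio of Cd3d to Cd3g in TPM was between 1.30 and 1.76 in the libraries without T-bet and between 1.78 and 2.31 in those with it.

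Cd3e and Zap70 had a sizeable share of their TPM on transcripts annotated with a retained intron. For Cd3e, the transcript Cd3e-203 held between 20.1% and 34.9% of the gene's TPM, and the protein-coding Cd3e-201 between 61.6% and 72.9%. The share of Cd3e-203 rested on fewer fragments, 108 to 281 estimated counts against 729 to 1580 for Cd3e-201. With protein-coding transcripts alone, the mean TPM of Cd3e in libraries with T-bet was 1.03 times that in the others. Cd3d-201 held 80.5% to 91.6% of Cd3d, and Cd3g-201 86.3% to 99.4% of Cd3g.

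Cd247, which encodes the ζ chain and lies on chromosome 1 (165788681 to 165877277, plus strand), was almost without reads. It had 0 and 2 counts in GFP + Plum, 0 and 6 in GFP + GATA3, 0 and 10 in T-bet + Plum, and 5 and 9 in T-bet + GATA3, and never exceeded 0.511 TPM. Both libraries of T-bet + GATA3 held counts, and in each other line 1 library held none. Cd247 did not pass the filter on low counts and was not tested in that fit. In the same libraries the other CD3 chains were at 80.3 to 210 TPM. By mean TPM, Cd247 ranked 18562 of 54146 genes, against 766 for Cd3d, 1134 for Cd3e and 1312 for Cd3g.

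Fcer1g encodes the Fc receptor γ chain, a relative of ζ that is known to be able to take its place in the receptor of some T cells. It was singled out after its values were seen, as the only NK cell marker listed that reached 1 TPM. Fcer1g was at 75.2 and 43.5 TPM in GFP + Plum, 49.0 and 41.5 in GFP + GATA3, 3.72 and 5.42 in T-bet + Plum, and 4.03 and 2.30 in T-bet + GATA3. The libraries with T-bet were all below those without, and Fcer1g fell by 3.67 on the log2 scale (95% interval -4.27 to -3.07, edgeR FDR = 9.93e-05). Even at its lowest, 2.30 TPM, Fcer1g was above the highest Cd247 value.

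The αβ receptor chains themselves gave opposite results for α and β. Trac, the α constant gene, was at 260 and 221 TPM in GFP + Plum, 275 and 248 in GFP + GATA3, 128 and 126 in T-bet + Plum, and 153 and 173 in T-bet + GATA3, with no overlap between libraries with and without T-bet. Trac fell by 0.67 on the log2 scale with T-bet (95% interval -0.85 to -0.48, edgeR FDR = 0.00129). Trbc2, a β constant gene, was at 2124 and 1432 TPM in GFP + Plum, 1737 and 1553 in GFP + GATA3, 2618 and 2871 in T-bet + Plum, and 2705 and 2276 in T-bet + GATA3. Trbc2 was higher with T-bet, by 0.74 (95% interval 0.43 to 1.05, edgeR FDR = 0.00868). The ratio of Trbc2 to Trac in TPM was between 6.26 and 8.16 without T-bet and between 13.2 and 22.8 with it. Trbc1, at 0.628 to 3.87 TPM, was not called (FDR = 0.259 by edgeR). Trbc1 and Trbc2 are near-identical copies, so the division of fragments between them is uncertain. Trdc, the δ receptor constant gene, was at or near 0 and was not tested.

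**Figure D1:**
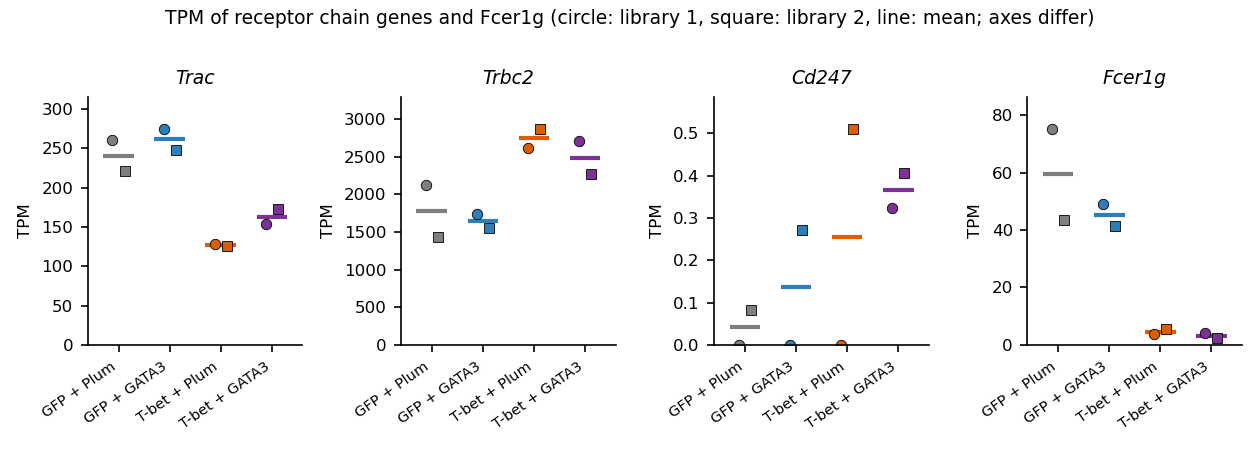
TPM (vertical axes, which differ) of Trac, Trbc2, Cd247 and Fcer1g in the 4 lines, with a circle for library 1, a square for library 2 and a line at their mean. Trac and Fcer1g were lower and Trbc2 higher in the 4 libraries with T-bet, while Cd247 stayed at or below 0.511 TPM.

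Cd8a was at or near the floor, and Cd4 was above it but low, with 9 to 71 counts. These stimulated EL4 libraries thus hold almost no Cd8a mRNA and little Cd4 mRNA. Cd8a, the CD8 α chain (chromosome 6, 71373427 to 71379173, plus strand), had 2 and 4 counts in GFP + Plum, 0 and 0 in GFP + GATA3, 1 and 2 in T-bet + Plum, and 1 and 2 in T-bet + GATA3. It was not tested. Cd8b1, the CD8 β chain, named after its values were seen, was also at or near 0 and was not tested. Cd4 (chromosome 6, 124864692 to 124888221, minus strand) had 10 and 9 counts in GFP + Plum, 13 and 20 in GFP + GATA3, 9 and 71 in T-bet + Plum, and 15 and 23 in T-bet + GATA3, or 0.235 to 2.49 TPM. The 71 counts of T-bet + Plum replicate 2 stood apart from its partner. The T-bet effect for Cd4 was 1.34 (95% interval 0.32 to 2.36, edgeR FDR = 0.0821) and was not called. With no filter on low counts Cd4 was called, at 1.34 (edgeR FDR = 0.0019), and so was its difference between T-bet + Plum and GFP + Plum (2.35, edgeR FDR = 7.49e-05). Without the library with 71 counts the T-bet effect was 0.61 (edgeR FDR = 0.328), and without replicate 1 of the same line it was 1.67 and passed the threshold (edgeR FDR = 0.0117). The interaction, which compares the T-bet effect on Cd4 between GATA3 states, was -2.05 and was not called (unadjusted p of 0.0493, FDR of 1 by edgeR), and it lay between -2.69 and -0.58 (without T-bet + Plum replicate 2) with 1 library left out.

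Lck is the kinase that starts signalling at the receptor. It lies on the minus strand of chromosome 4 (129548344 to 129573641). Lck was at 34.1 and 49.7 TPM in GFP + Plum, 32.5 and 50.7 in GFP + GATA3, 98.4 and 158 in T-bet + Plum, and 55.5 and 119 in T-bet + GATA3. All libraries with T-bet were above all those without, although the lowest with T-bet (55.5) was close to the highest without (50.7). Replicate 2, the deeper library, was above replicate 1 in all 4 lines, and depth and harvest cannot be told apart. Replicates spread widely in the lines with T-bet, with a mean of 128 TPM ± 42.4 (SD, n = 2) in T-bet + Plum and 87.4 ± 45.1 in T-bet + GATA3.

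The T-bet effect for Lck was 1.52 (SE 0.28, 95% interval 0.88 to 2.15, edgeR FDR = 0.00868). T-bet + Plum was above GFP + Plum by 1.79 (95% interval 0.88 to 2.69, edgeR FDR = 0.0358). That call was lost without GFP + Plum replicate 1 (1.40, edgeR FDR = 0.106), without T-bet + Plum replicate 1 (2.10, edgeR FDR = 0.0629) or without T-bet + Plum replicate 2 (1.37, edgeR FDR = 0.24). With GATA3 present, the log2 FC for T-bet was 1.25 (95% interval 0.35 to 2.15, edgeR FDR = 0.114) and was not called. This difference was called with DESeq2 (1.24, FDR = 0.00566). It was also called by edgeR with no filter on low counts (1.26, FDR = 2.47e-10) and by edgeR with the replicate block (1.23, FDR = 0.00101). Over all alternatives it lay between 0.77 (without T-bet + GATA3 replicate 2) and 1.56. The interaction was -0.53 (95% interval -1.78 to 0.72, edgeR FDR = 1), so a difference in the T-bet effect between GATA3 states was not shown. Over both states, the call was kept in all 15 alternatives, with log2 FCs between 1.26 and 1.78.

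Lck transcripts come from a distal start, used by Lck-202, and a proximal start 15269 bases downstream. Lck-201, Lck-206 and Lck-208 begin at or near that proximal start and were counted together. The proximal start is known for thymocytes and the distal one for mature T cells. Transcripts of the downstream start were at 31.8 and 47.1 TPM in GFP + Plum, 29.8 and 46.0 in GFP + GATA3, 91.2 and 142 in T-bet + Plum, and 49.4 and 114 in T-bet + GATA3. Those of the upstream start were at 0.957 and 0.443 TPM in GFP + Plum, 1.38 and 2.70 in GFP + GATA3, 6.31 and 13.7 in T-bet + Plum, and 5.07 and 3.56 in T-bet + GATA3. Both sets were thus higher in every library with T-bet than in any without, and no test was run on single transcripts. The upstream start gave between 0.931% and 9.31% of the TPM of both, so the downstream start carried most Lck mRNA in every line. The short Lck-206 held 36.5% to 50.8% of the gene's TPM from 34.6 to 258 estimated counts, whereas Lck-201 held 42.5% to 53% from 335 to 2300, so about as much TPM rested on far fewer fragments. The core match upstream of each start is given with the sequences above.

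**Figure D2:**
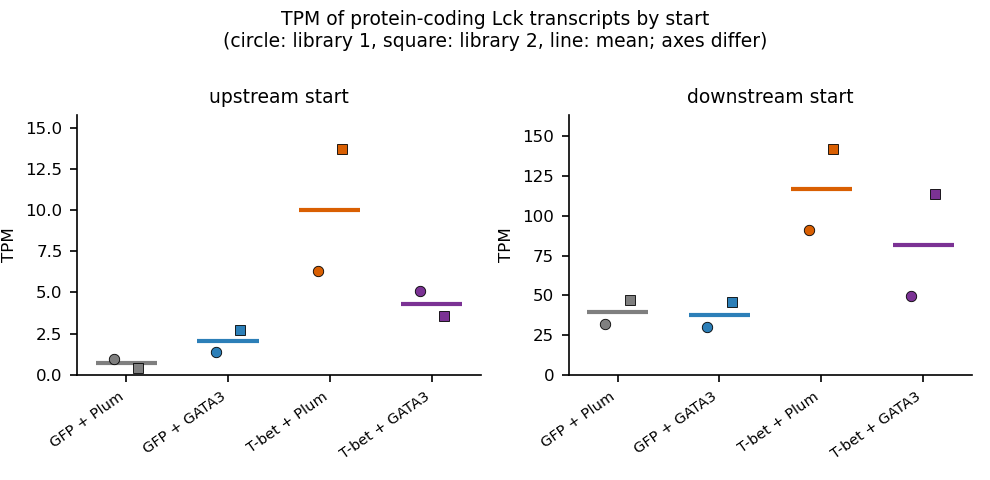
TPM (vertical axes, which differ) of protein-coding Lck transcripts from the upstream and the downstream start in the 4 lines, with a circle for library 1, a square for library 2 and a line at their mean. The upstream start ranged from 0.443 to 13.7 TPM and the downstream start from 29.8 to 142 TPM, both higher in the libraries with T-bet.

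Zap70 encodes the kinase that binds the phosphorylated CD3 and ζ tails, and lies on chromosome 1 (36761798 to 36782818, plus strand). It was at 105 and 92.0 TPM in GFP + Plum, 117 and 114.5 in GFP + GATA3, 157 and 172 in T-bet + Plum, and 148 and 164 in T-bet + GATA3. The libraries with T-bet were all above those without, and replicates lay close together. The T-bet effect was 0.71 (SE 0.077, 95% interval 0.53 to 0.88, edgeR FDR = 0.000801). Zap70 was called in the 3 comparisons made of a line with T-bet and a line without: 0.80 for T-bet + Plum over GFP + Plum (edgeR FDR = 0.00531), 0.61 for T-bet + GATA3 over GFP + GATA3 (edgeR FDR = 0.0161) and 0.84 for T-bet + GATA3 over GFP + Plum (edgeR FDR = 0.00474). The first call was lost without T-bet + Plum replicate 2 (0.72, edgeR FDR = 0.0597). The second was lost without any 1 of its own 4 libraries, with FDRs between 0.0831 and 0.149 and log2 FCs between 0.54 and 0.62. The third was kept in all 16 alternatives, and so was the T-bet effect in its 15.

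The share of Zap70 TPM on the retained-intron transcript Zap70-204 was 23.3% to 36.6%, and Zap70-201, the main coding transcript, held 55.1% to 70.5%. In estimated counts, Zap70-204 held 405 to 958 and Zap70-201 held 1480 to 3510. Zap70-201 alone was at 57.7 and 58.2 TPM in GFP + Plum and at 95.5 and 106 in T-bet + Plum. The ratio of Lck to Zap70 in TPM ranged from 0.279 to 0.540 without T-bet and from 0.374 to 0.921 with it. These ranges overlapped.

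Lat encodes the membrane adaptor that ZAP-70 phosphorylates (chromosome 7, 126363824 to 126369570, minus strand). Lat was the most abundant of the 9 genes in every library, at 451 and 351 TPM in GFP + Plum, 427 and 437 in GFP + GATA3, 470 and 514 in T-bet + Plum, and 418 and 423 in T-bet + GATA3. T-bet + Plum had the highest values, and T-bet + GATA3 lay within the range of the lines without T-bet. In CPM on TMM-scaled library sizes, the libraries with T-bet were all above the others, between 464 and 569 against 396 to 456. That separation depended on the scaling. GFP + Plum replicate 1 had 7369 Lat counts of 15385166, and T-bet + GATA3 replicate 2 had 6972 of 15286368, so unscaled shares overlapped. The T-bet effect was 0.25 (95% interval 0.05 to 0.46, edgeR FDR = 0.0994) and was not called. Lat-201 held 91.7% to 93.5% of the gene's TPM.

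In CPM on TMM-scaled library sizes, 4 of the 9 genes (Cd3d, Lck, Zap70 and Lat) had all libraries with T-bet above all those without. In TPM, Lat did not. Among all genes tested, 12.5% did so, and 10.2% had all libraries with T-bet below.

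**Figure D3:**
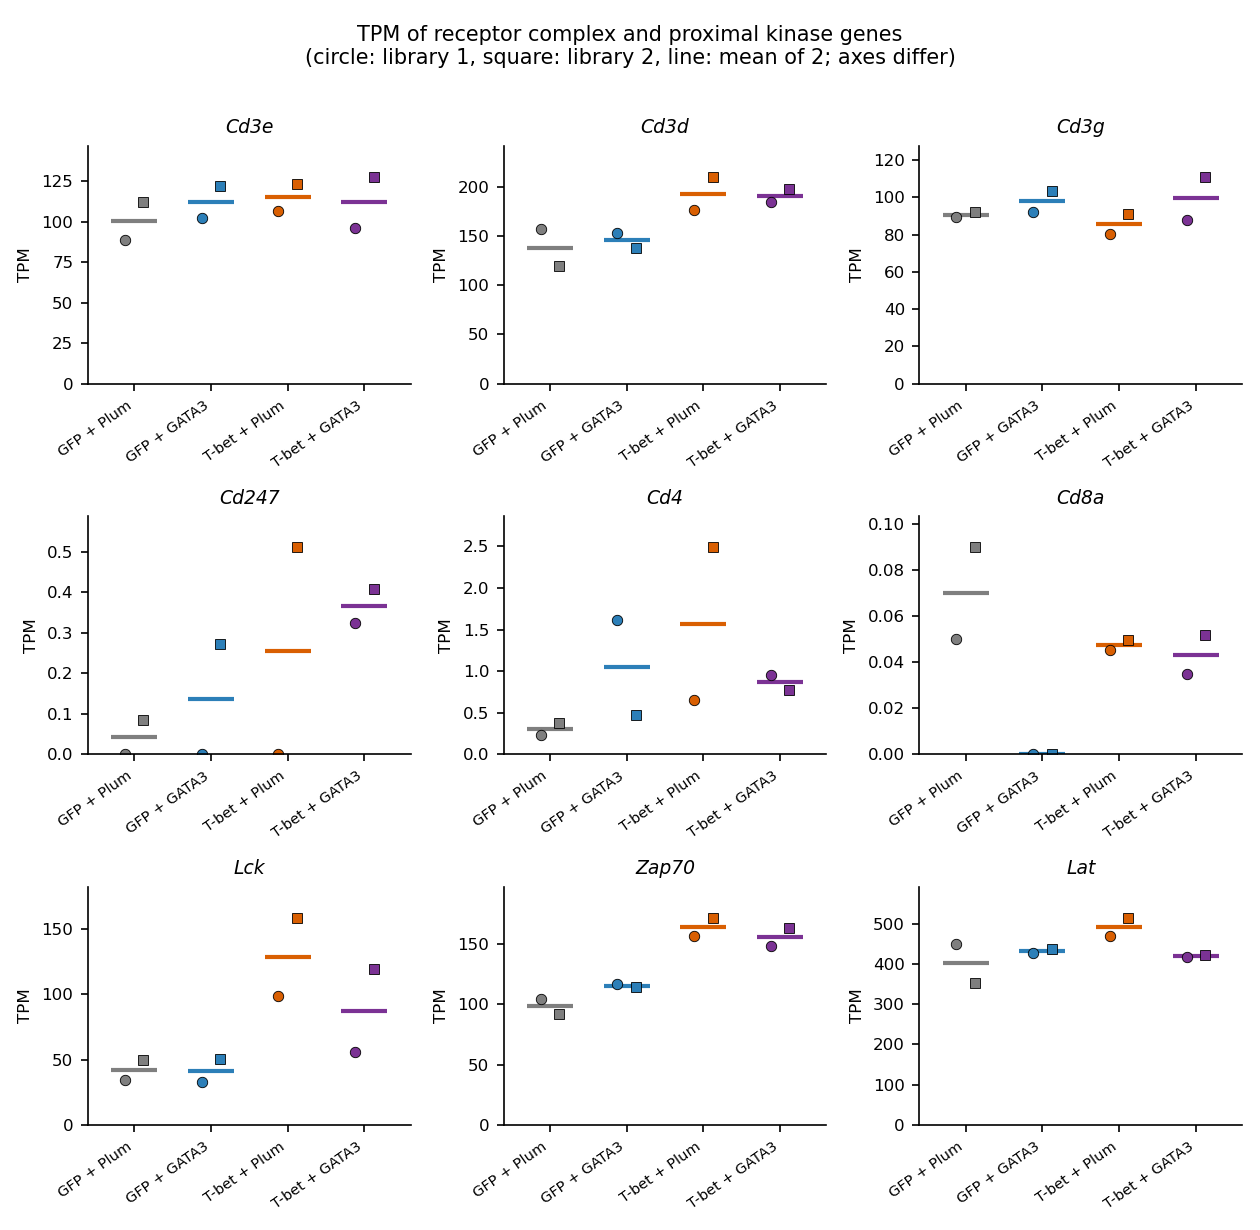
TPM (vertical axes, which differ) of the 9 genes in the 4 lines, with a circle for library 1, a square for library 2 and a line at their mean. Lck, Zap70 and Cd3d were higher in every library with T-bet, Cd3e and Cd3g overlapped between lines, and Cd247, Cd4 and Cd8a stayed below 2.5 TPM.

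Calls between single lines were fewer, apart from the first comparison. In T-bet + Plum versus GFP + Plum, Lck, Zap70 and Cd3d were called, against 6.2% of all genes tested. Zap70 alone was called between T-bet + GATA3 and GFP + GATA3, where 5.77% of genes were called, and in T-bet + GATA3 versus GFP + Plum, where 4.87% were. These comparisons share control libraries, so their values are not independent. In the first comparison, the count was 0 without T-bet + Plum replicate 2 and 1 without GFP + Plum replicate 1. With DESeq2, Lck, Zap70 and Cd3d were called in each of the other pair of comparisons.

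GATA3 was not linked to a called difference in any of the 9 genes. The GATA3 effect was -0.27 for Lck (95% interval -0.89 to 0.36), 0.13 for Zap70 (-0.04 to 0.31), 0.01 for Cd3d (-0.20 to 0.21), 0.06 for Cd3e (-0.19 to 0.31), 0.14 for Cd3g (-0.09 to 0.38), -0.05 for Lat (-0.25 to 0.16) and 0.04 for Cd4 (-0.90 to 0.99). By edgeR, 0 members had an unadjusted p under 0.05, and DESeq2 also called 0. Across all genes tested, 0.0608% were called for the GATA3 effect. When GFP + GATA3 was compared with GFP + Plum, and T-bet + GATA3 with T-bet + Plum, 0 members were called by edgeR or by DESeq2, 0 had an unadjusted p under 0.05 by edgeR, and 0.0203% and 0.0338% of all genes were called. The interaction was called by edgeR in 0 members and 0% of genes, and by DESeq2 in 0 members. Cd4 was the member with an unadjusted p under 0.05. The intervals for Zap70, Cd3d, Cd3e, Cd3g and Lat lay between -0.25 and 0.38, whereas those for Lck and Cd4 were wider.

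**Figure D4:**
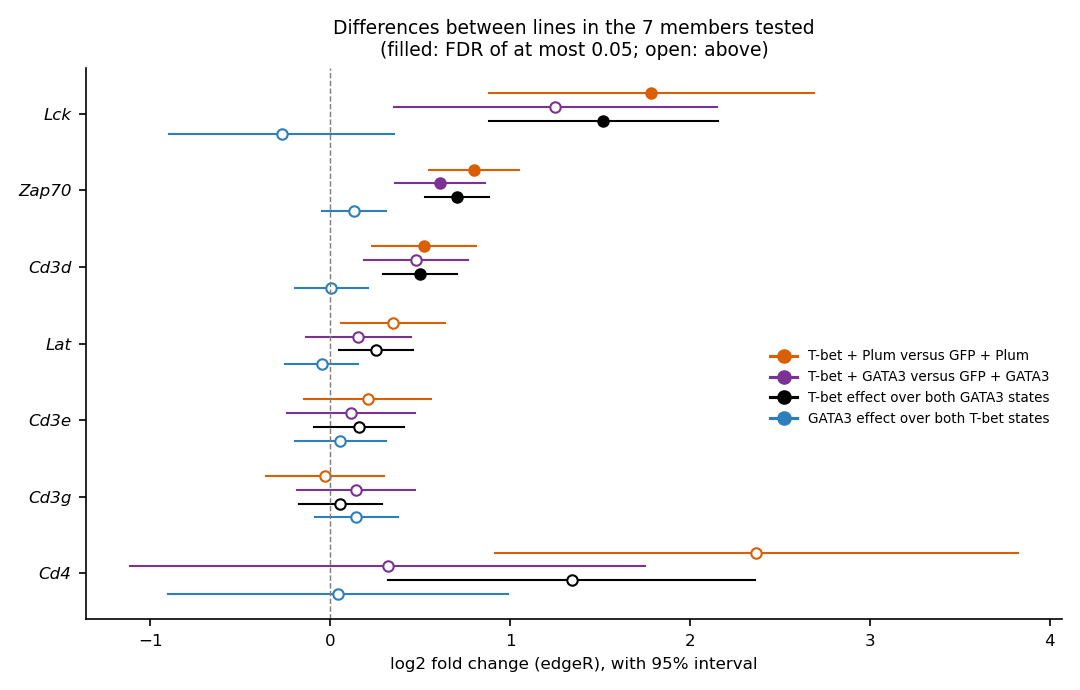
Log2 fold change (horizontal axis, edgeR) with 95% interval for the 7 genes tested, for T-bet without and with GATA3, and for the T-bet and GATA3 effects over both states of the other factor, with filled points at an FDR of at most 0.05. Lck, Zap70 and Cd3d have filled points for the T-bet effect, at 1.52, 0.71 and 0.50, and no point for GATA3 is filled.

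The genes most like Lck across the 8 libraries, by Pearson's r of log2 CPM, were Apobec2 (0.988), Mfng (0.987) and Tbc1d2b (0.986). For Zap70 they were Phf11b (0.994), Ppdpf (0.994) and Klrc1 (0.992), and for Cd3d they were Insig1 (0.993), Extl3 (0.988) and Nr3c1 (0.987). The 8 points share the same lines and depths, and 274, 550 and 624 genes had an r above 0.9 with Lck, Zap70 and Cd3d.

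Another 42 genes of the receptor and its proximal pathway were listed, of which 40 were tested. The list was chosen with earlier results of these data known, so its shares are a description only. For the T-bet effect, 18 were called higher, 3 lower and 19 were not called, against 15.2% of all genes tested called and 8.55% called higher. The median log2 FC was 0.33, against 0.02 for all genes tested. Of 8 surface partners, 5 were called, all higher, against the same 8.55%. Cd2, an adhesion receptor, was at 1.57 to 2.58 TPM without T-bet and 9.66 to 19.8 TPM with it, a T-bet effect of 3.01 (edgeR FDR = 5.3e-05). Sit1, an inhibitory transmembrane adaptor, was at 0.955 to 3.19 TPM without T-bet and 9.02 to 17.2 TPM with it (2.93, edgeR FDR = 0.00171). Cd5, a receptor that restrains signalling, was higher by 1.12, and the adaptor Lax1 by 1.499. Cd6, which is related to Cd5, was called at 1.67, but its libraries overlapped, and the call was lost in 6 of the 8 fits that left out 1 library (edgeR FDR = 0.0656 to 0.119). Without T-bet + GATA3 replicate 1 the T-bet effect for Cd6 was 1.06. Cd28 and Ptprc were named after their values were seen. Cd28, the co-stimulatory receptor, was not called (0.17, FDR = 0.329 by edgeR), nor was Ptprc, which encodes the CD45 phosphatase that acts on Lck (-0.24, FDR = 0.143 by edgeR). In CPM, all Ptprc libraries with T-bet (998 to 1239) were below all those without (1261 to 1385), as in 10.2% of all genes tested.

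Of 10 Src and Tec kinases and their regulators, 7 were called higher and 1 lower with T-bet, against 8.55% of all genes called higher and 15.2% called in either direction. The Tec family kinases Txk and Tec were higher, by 1.53 and 1.18. Fyn, the other main Src family kinase of T cells, was singled out after its values were seen. It was at 79.0 to 107 TPM without T-bet and 128 to 196 TPM with it (0.92, edgeR FDR = 0.000625). Pag1, an adaptor that brings the inhibitory kinase CSK to the membrane, was named on the same terms and fell by 0.70 on the log2 scale. The ratio of Lck to Fyn in TPM ranged from 0.320 to 0.642 without T-bet and from 0.433 to 0.923 with it.

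Of 19 adaptors and effectors, 5 were called higher, 1 lower and 13 were not called, against the same shares, with a median log2 FC of 0.02. Themis, which acts in thymocyte selection, was higher by 1.89 (edgeR FDR = 0.000195), at 4.68 to 5.99 TPM without T-bet and 10.7 to 19.5 TPM with it. The related genes Ubash3a and Ubash3b, which encode phosphatase-like regulators of this pathway, were called in opposite directions. Ubash3a was higher by 1.61, and Ubash3b fell by 1.58 on the log2 scale, with the libraries overlapping because GFP + Plum replicate 2 was at 3.68 TPM, within the T-bet range of 1.99 to 4.81 TPM. The call for Ubash3b was lost in 7 of 15 alternatives, with transcript length offsets (edgeR FDR = 0.0615) and in 6 of the fits that left out 1 library (edgeR FDR = 0.0687 to 0.148), and the T-bet effect was -0.92 without GFP + Plum replicate 1.

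For GATA3, 0 of the 40 genes were called by edgeR and 1 by DESeq2, and 11 had an unadjusted p under 0.05 by edgeR. Across all 14791 genes tested, 0.0608% were called and 733 had an unadjusted p under 0.05. The interaction was called in 0 of the 40 and 0% of all genes by edgeR, with 5 of the 40 and 381 of all genes at an unadjusted p under 0.05.

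**Figure D5:**
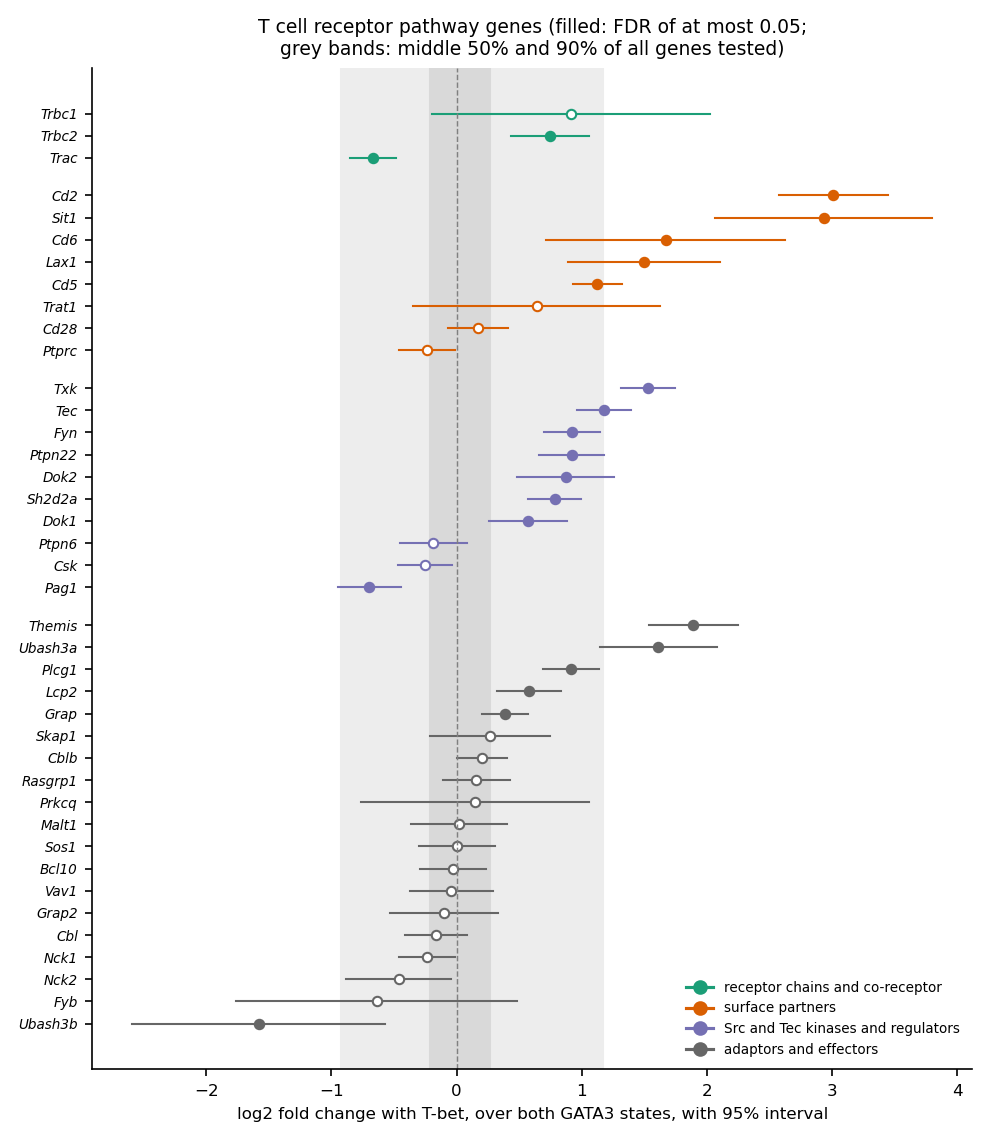
T-bet effect (horizontal axis, log2 FC with 95% interval) for the 40 other pathway genes tested, in 4 groups by role, with filled points at an FDR of at most 0.05 and grey bands for the middle 50% and 90% of all genes tested. The filled points are mostly to the right among surface partners and kinases, led by Cd2 at 3.01 and Sit1 at 2.93, and lie on both sides among adaptors and effectors.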

How the data were processed

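Paired-end RNA-seq reads were filtered and trimmed by the authors with FastQC and Trim Galore, and transcripts were quantified with kallisto (per the submitters' processing notes, mm10). The methods name Gencode M20 and the deposited values are labelled M18. The deposited estimated counts are unnormalized and can be fractional, and kallisto divides fragments shared by several transcripts. The deposited TPM values, scaled by the authors to the same total in every library, correct for transcript length.

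Here, estimated counts and TPM were summed per gene, and counts were rounded to whole numbers. Lines were compared with edgeR 4.0.16 under R 4.3.3 (TMM, filterByExpr, quasi-likelihood test, 1 fit over the 4 lines without a covariate, Benjamini-Hochberg adjustment). Intervals are 95% and use SE = the size of the log2 FC over the square root of F. Positions come from Gencode M21 (GRCm38), which holds all 9 genes with the same identifier version, and promoter windows from RefSeq GRCm38.p6. A count of 3 was the floor. Intervals cover the spread between libraries, and floors cover counting error only.

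The 9 genes, the pathway list and the cell markers were chosen with earlier results of these data known. The genes named were the 9, the T cell receptor constant genes, up to 10 called pathway genes by size of log2 FC, the 3 genes most correlated with each called member, Tbx21 and Gata3, and transcripts holding at least 5% of a gene's TPM. Some genes of the pathway list are not reported here and are left out of its counts. Other genes named are marked as chosen after their values were seen. Alternatives were DESeq2 1.42.0, RLE size factors, library size alone, transcript length offsets, a minimum of 10 counts per library or no filter on counts, the replicate block, only the lines compared, each library left out, an added log2 FC threshold of 1.5, and, for levels, CPM or protein-coding transcripts alone. The 2 libraries of each line were compared and were not copies (chi-square over its degrees of freedom of 9.71 to 28.3). The fit was tested on simulated data. The authors' tximport, DESeq2 and gene set results were not used here.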

Additional observations from a re-analysis of the deposited data

How the results depend on the processing

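Over both GATA3 states, Lck, Zap70 and Cd3d kept their direction and their call for T-bet in all 15 alternative fits. With an added log2 FC threshold of 1.5, the count of members called went from 3 to 1 for the T-bet effect and for T-bet + Plum against GFP + Plum, and from 1 to 0 for T-bet + GATA3 versus GFP + Plum and versus GFP + GATA3. In the latter pair, 3 members were called with DESeq2, 2 with no filter on low counts and 3 with the replicate block. With 1 library left out, 0 to 2 members were called between T-bet + Plum and GFP + Plum, and 0 to 1 between T-bet + GATA3 and GFP + GATA3. The lone library of a line is then assumed to vary like the others. For the pathway list the threshold of 1.5 left 7 of 21 genes for the T-bet effect, 5 of 14 for T-bet + Plum versus GFP + Plum, 3 of 10 for T-bet + GATA3 versus GFP + Plum and 5 of 13 between T-bet + GATA3 and GFP + GATA3. With no filter on low counts, the last pair gave 16 and 19, GFP + GATA3 versus GFP + Plum gave 2 in place of 0 and the GATA3 effect 4 in place of 0, and DESeq2 gave 1 in each of those with 0. With 1 library left out the pathway counts were 5 to 14, 5 to 8 and 5 to 16 for the 3 comparisons of lines for T-bet, in the order above. Of all genes tested, 2242 were called for the T-bet effect, 666 with the threshold of 1.5 and, with 1 library left out, 1229 (without GFP + GATA3 replicate 2) to 2377. In T-bet + Plum versus GFP + Plum, the count of 917 became 446 with that threshold, 1964 with no filter, 1440 with the replicate block and 268 (without T-bet + Plum replicate 2) to 959 with 1 library left out, and for the interaction 0 became 15 with DESeq2 and 145 with no filter. The mean TPM of Zap70 with T-bet was 1.5 times that without, and 1.63 times in CPM. The causes were not tested.

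Signs changed in values that were near 0 in the main fit and never called. With library size alone, the T-bet effect on Cd3g was -0.0020 and the GATA3 effect on Cd3d -0.0125, and with transcript length offsets the interaction for Cd3d was 0.033. With 1 library left out, the log2 FC of Cd3g in T-bet + Plum versus GFP + Plum lay between -0.18 and 0.15, that of Cd3e in T-bet + GATA3 versus GFP + GATA3 between -0.015 and 0.22, and the T-bet effect on Cd3g between -0.022 and 0.14. The GATA3 effect on Cd4, 0.04 in the main fit, ranged widely, between -0.28 and 0.78. It lay between -0.095 and 0.0040 for Lat, -0.020 and 0.15 for Cd3e and -0.046 and 0.062 for Cd3d. The interaction lay between -0.0036 and 0.33 for Cd3g, -0.27 and 0.065 for Cd3e and -0.15 and 0.069 for Cd3d.

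The labels do not say whether same-numbered libraries were harvested together. Such libraries deviated together with r from -0.0455 to 0.302 over 6 pairs of lines, with a mean of 0.142. The replicate numbers were thus neither shown to pair libraries nor shown not to. With the replicate block, the genes called between T-bet + GATA3 and GFP + GATA3 went from 854 to 1379. The block raised the members called to 3 in both comparisons named above, with Lck at 1.23 (FDR = 0.00101 by edgeR) between T-bet + GATA3 and GFP + GATA3, and changed no other count of members called. Depth limits Cd247, Cd8a and Cd4 most, since their counts are the lowest of the 9 genes.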
